A study of Mus musculus with 3 samples.

Results

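Molecular chaperones and peptidyl-prolyl isomerases were profiled in mouse 2-cell embryos as a set of 103 genes, drawn from 16593 genes on the array. The set holds every gene whose platform symbol belongs to the heat shock protein families (Hspa, Hspb, Hspd, Hspe, Hsph and Hsp90), the J-domain proteins (Dnaj), the cytosolic chaperonin (Tcp1 and Cct2 to Cct8), the BAG, prefoldin, FKBP and cyclophilin (Ppia to Ppih) families, the heat shock factors Hsf1 and Hsf2, or the adaptors Stip1 and St13. These genes were covered by 137 of 25697 probes, and the probe with the highest mean signal stands for each gene. Hspa1b, Hsp90ab1, Hsf1, Ppia and Ppib were not matched and are not analysed here. The symbol Cct8l1 also fell under the rule for Cct8 and is counted apart from the families.

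The study set 2 arrays of 2-cell NSN embryos, called 2-cell NSN-a and NSN-b in what follows, against 1 array of 2-cell ctrl embryos. The 2-cell NSN embryos came from incompetent oocytes in which no ring of heterochromatin surrounds the nucleolus. These oocytes were collected from antral follicles of PMSG-injected females, matured in culture to metaphase II and fertilised in vitro, and the embryos stop at the 2-cell stage. The 2-cell ctrl embryos came from competent, ovulated metaphase II oocytes fertilised in the same way. Females and sperm donors were hybrids of the same cross (B6C3F1, given as F1B6C3H in the labels), and no transgene or targeted allele is named. The chromatin type of the oocyte and its collection from the ovary with maturation in culture cannot be told apart in these groups. Nothing states that the pair of 2-cell NSN arrays came from separate pools of embryos, so their spread may be technical, and the control has no replicate. In bulk RNA of embryos, a lower signal from fewer intact cells and one from less RNA per cell cannot be told apart.

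Chaperones bind unfolded or partly folded proteins, and many release them through cycles of ATP hydrolysis. HSP70 proteins take their substrates from J-domain proteins, which stimulate the ATPase, and are reset by nucleotide exchange factors such as HSP110 and the BAG proteins. HSP90 finishes the folding of kinases and steroid receptors together with co-chaperones, several of them prolyl isomerases. Chaperonins enclose whole polypeptides, and prefoldin hands actin and tubulin to the cytosolic one. In the mouse, inducible HSP70 is among the early products of the embryonic genome, whose activation takes place mainly at the 2-cell stage, and heat shock factors act in oocytes and early embryos.

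Signals were background-subtracted fluorescence intensities on a linear scale, so a probe without signal scatters around 0 and can be negative. A probe was taken as above background where its signal reached the detection limit of its array, which was 8.57 on 2-cell NSN-a, 8.28 on 2-cell NSN-b and 6.10 on the 2-cell ctrl array. The one for 2-cell NSN-b had to be assumed. The array medians were 0.0443, 0.0195 and 0.0916 in the same order. The probes that reached them numbered 193 (0.751%) on 2-cell NSN-a, 203 (0.790%) on 2-cell NSN-b and 1085 (4.22%) on the 2-cell ctrl array. Among 23 genes typical of oocytes and 2-cell embryos, 2 reached the limit on 2-cell NSN-a as well as NSN-b and 9 did so in 2-cell ctrl, 6 were called lower in 2-cell NSN and 0 higher. The summed signal of that list was 70.5 and 67.8 in 2-cell NSN embryos, against 327 in 2-cell ctrl embryos. Markers of cumulus and granulosa cells (0 of 9 genes above background) summed to 11.3 and 3.83 in 2-cell NSN and to 6.65 in 2-cell ctrl. The part that the lower signal of the embryo genes has in the differences below was not tested.

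Most chaperone genes gave no signal above background in either kind of embryo. Of the 103 genes, 1 was above background on 2-cell NSN-a, the same number on 2-cell NSN-b and 13 on the 2-cell ctrl array. The signals of the 103 genes ran from -4.39 to 11.5 on 2-cell NSN-a, from -4.98 to 15.3 on 2-cell NSN-b and from -2.94 to 286 on the 2-cell ctrl array. The 13 genes are 12.6% of the set, and 949 of all genes (5.72%) were above background by the same rule. 12 of the 13 entered only through the control array, a selection that favours lower signals in 2-cell NSN, so their direction is not a result about chaperones.

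Among the 13 genes, 2-cell NSN embryos had 5 called lower by 1.5-fold or more and 0 called higher. Over all 949 genes above background, 44.5% were called lower and 8.32% higher. The share of chaperone genes called lower (38.5%) was thus near that of all genes. The 5 genes were Hspa2, Dnaja3, Bag1, Hsph1 and Dnajb1, which are an HSP70, a pair of J-domain proteins and a pair of nucleotide exchange factors. The median log2 difference, with dim signals raised to the detection limit, was -0.14 over the 13 genes and -0.41 over the 949. These medians understate the differences, because a gene barely above the lower limit of the control array is set against the higher limits of the 2-cell NSN arrays. For 5 of the 13 genes the limits alone gave a value above 0, and no fold is given for them.

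**Figure D1:**
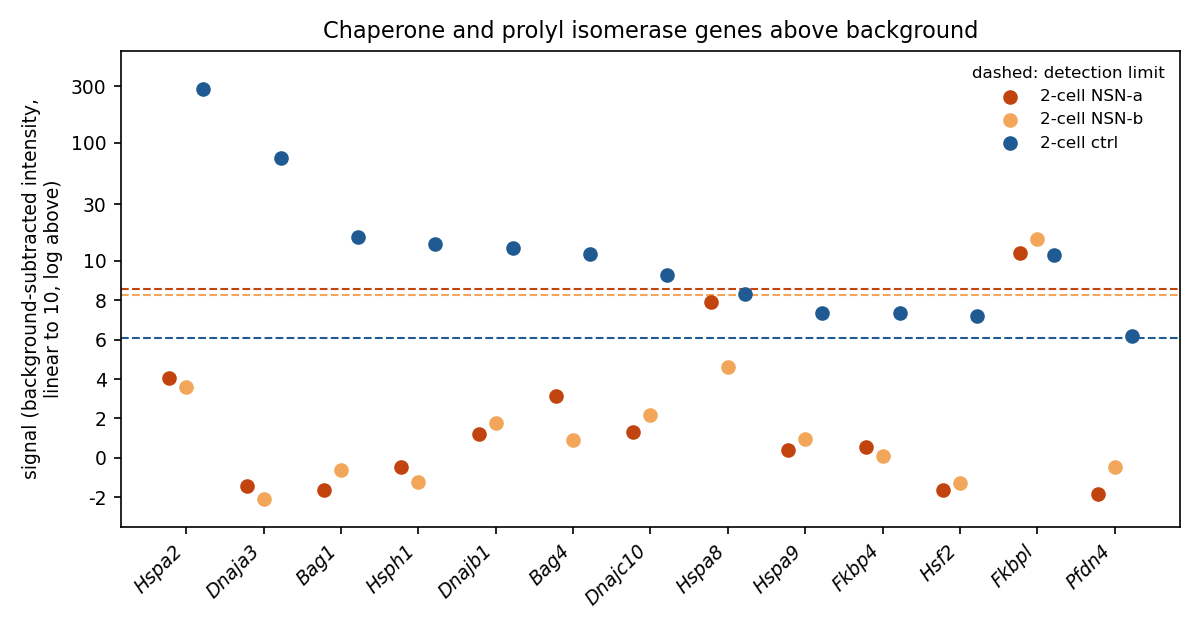
Signal (background-subtracted intensity, axis linear to 10 and logarithmic above) of the 13 chaperone and prolyl isomerase genes above background, with 1 point per array and a dashed line at each array's detection limit. Fkbpl is above the limit on all 3 arrays, whereas the other 12 genes are above it only in 2-cell ctrl, by a wide margin for Hspa2 (286) and Dnaja3 (74.8).

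Promoter sequences are shown for Hspa2 and Dnaja3, which had the highest control signals of the set, and for Hsph1, the one called gene with a paired heat shock element. The sequences are the 250 bases before the most upstream start site annotated by RefSeq (GRCm38.p6), written along the strand of the gene. They lie at chr12:76404120-76404369 (plus strand), chr16:4683820-4684069 (plus strand) and chr5:149636337-149636586 (minus strand). Capitals mark the CCAAT box on either strand (CCAAT or ATTGG) and the heat shock element TTCNNGAA.
Hspa2: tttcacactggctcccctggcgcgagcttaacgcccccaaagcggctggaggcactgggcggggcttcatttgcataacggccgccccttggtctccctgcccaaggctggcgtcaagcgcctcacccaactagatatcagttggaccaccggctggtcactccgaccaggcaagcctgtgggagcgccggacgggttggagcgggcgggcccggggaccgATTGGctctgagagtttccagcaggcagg
Dnaja3: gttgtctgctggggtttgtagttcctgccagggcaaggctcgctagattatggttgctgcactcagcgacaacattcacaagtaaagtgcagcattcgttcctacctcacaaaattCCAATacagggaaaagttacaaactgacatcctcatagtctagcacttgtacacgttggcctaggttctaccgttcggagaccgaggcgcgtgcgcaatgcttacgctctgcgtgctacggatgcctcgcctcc
Hsph1: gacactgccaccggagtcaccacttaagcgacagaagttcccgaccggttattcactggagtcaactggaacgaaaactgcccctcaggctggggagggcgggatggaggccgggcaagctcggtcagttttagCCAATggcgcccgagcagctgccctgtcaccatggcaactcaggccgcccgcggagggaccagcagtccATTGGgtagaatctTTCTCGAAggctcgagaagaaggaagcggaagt

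A window of this kind was held for 84 of the 103 genes, for 10 of the 13 above background and for the 5 called lower. The heat shock element is the binding motif of heat shock factors and was searched as an adjoining pair of units, GAANNTTC or TTCNNGAA, each of which reads the same on both strands. Either form occurred in 14 of the 84 windows (16.7%), against 13.0% of 27025 windows. These are the windows of all RefSeq genes, on the array or not, and are called all windows here. Among the genes above background, Fkbp4 had GAANNTTC, and Hsph1 and Dnajc10 had TTCNNGAA, which in Hsph1 lies 33 to 26 bases before the start. A CCAAT box, the motif bound by the factor NF-Y, was in 31 of the 84 windows (36.9%), against 34.5% of all windows. It was present in Hspa2, Dnaja3, Dnajb1 and Hsph1, and not in Bag1. Fkbp4, Fkbpl and Hsf2, which were not called, also had it, so 7 of the 10 windows of genes above background held the box. In Hspa2 it stood 29 to 25 bases before the start, in Dnaja3 134 to 130 bases and in Dnajb1 151 to 147 bases. TATAAA, searched on both strands, was in 4 of the 84 windows (4.76%), in none of the 5 called genes and in 13.0% of all windows. Each of these shares is a description of the letters in the window.

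The HSP70 and HSP110 family had 13 genes, of which 4 were above background in 2-cell ctrl, 2 were called lower in 2-cell NSN and 0 higher. Hspa2 encodes an HSP70 known in the mouse for its need in male meiosis. It measured 4.07 and 3.60 in 2-cell NSN embryos, both below the limits, against 286 in 2-cell ctrl embryos, the highest signal of the set. By this brighter of its 2 probes it was at least 34.0-fold lower in 2-cell NSN (log2 difference -5.09). Its other probe had 0.391 in 2-cell ctrl, below background. The log2 difference was -4.09 with the mean of both its probes, -3.93 with log2(signal + 16) and -1.74 with normexp correction and quantile normalisation. Markers of sperm and testis, tissues where Hspa2 is abundant, were below background on every array (0 of 7 genes), and summed to 5.93 and 9.78 in 2-cell NSN and to 2.81 in 2-cell ctrl. Hsph1 (HSP110), a nucleotide exchange factor of HSP70, had -0.462 and -1.21 in 2-cell NSN and 14.0 in 2-cell ctrl. It was thus at least 1.66-fold lower in 2-cell NSN (log2 difference -0.73).

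Hspa8, the constitutive cytosolic HSP70, had 7.93 and 4.62 in 2-cell NSN and 8.33 in 2-cell ctrl. The values of 2-cell NSN-a and the control array were close, and since the control value lies under the limit of 2-cell NSN-a no fold is given. Hspa9, the mitochondrial HSP70, had 0.398 and 0.934 in 2-cell NSN against 7.38 in 2-cell ctrl, a control signal under the limits of the 2-cell NSN arrays. Hspa1a, the stress-inducible HSP70, was below background throughout with -2.07 and -1.23 in 2-cell NSN and -0.359 in 2-cell ctrl. Hspa5 (BiP), the HSP70 of the endoplasmic reticulum, likewise had 1.07 and 0.646 in 2-cell NSN and 0.0495 in 2-cell ctrl. The 9 genes of the family below background reached at most 2.87 and 2.86 on the 2-cell NSN arrays and 3.05 on the control array, with Hspa13, Hspa4 and Hspa1l the brightest by mean signal.

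J-domain proteins formed the largest family, with 39 genes, of which 3 were above background in 2-cell ctrl, 2 were called lower in 2-cell NSN and 0 higher. Dnaja3 (Tid1), the mitochondrial J-domain partner of Hspa9, measured -1.44 and -2.10 in 2-cell NSN and 74.8 in 2-cell ctrl. By this brighter of its 2 probes it was at least 8.88-fold lower in 2-cell NSN (log2 difference -3.15), and neither 2-cell NSN value stood out from array background. Its other probe had -0.0533 in 2-cell ctrl. The log2 difference was -2.15 with the mean of both its probes, -2.50 with log2(signal + 16) and -0.76 with normexp correction and quantile normalisation. Dnajb1, a stress-inducible cytosolic J-domain protein, had 1.23 and 1.75 in 2-cell NSN and 12.9 in 2-cell ctrl, at least 1.53-fold lower (log2 difference -0.62). Dnajc10, a disulfide reductase of the endoplasmic reticulum, had 1.29 and 2.17 in 2-cell NSN and 9.27 in 2-cell ctrl. Its bound of 1.10-fold lower (log2 difference -0.14) did not reach the threshold. The other 36 genes of the family ran from -3.18 to 3.42 on 2-cell NSN-a, from -4.98 to 4.12 on 2-cell NSN-b and from -2.94 to 5.07 on the control array. The brightest of these by mean signal were Dnajc28 (2.85 and 4.12 in 2-cell NSN, 4.76 in 2-cell ctrl) and Dnaja2 (3.17 and 3.69 in 2-cell NSN, 2.16 in 2-cell ctrl). Both were under the limit on every array.

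Of 10 co-chaperones of HSP70 and HSP90, 2 were above background in 2-cell ctrl, both of the BAG family, whose shared domain releases nucleotide from HSP70. Bag1, which also binds the survival protein BCL2, had -1.64 and -0.631 in 2-cell NSN and 15.9 in 2-cell ctrl, at least 1.89-fold lower (log2 difference -0.92). Bag4, known as the silencer of death domains, had 3.13 and 0.897 in 2-cell NSN and 11.4 in 2-cell ctrl. At a bound of 1.35-fold (log2 difference -0.43) it was not called. Bag6, which guides tail-anchored and misfolded proteins, was below background with 4.04 and 0.425 in 2-cell NSN and 2.36 in 2-cell ctrl. Stip1 (HOP), the adaptor that joins HSP70 to HSP90, had 3.63 and -0.421 in 2-cell NSN and 1.78 in 2-cell ctrl. St13 (HIP), which stabilises the ADP-bound state of HSP70, had -3.15 and -0.730 in 2-cell NSN and 0.280 in 2-cell ctrl. For these adaptors the pair of 2-cell NSN arrays differed from each other by more than their mean differed from the control.

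Both HSP90 genes analysed were below background on every array. Hsp90aa1, the inducible cytosolic HSP90, had 2.43 and 2.05 in 2-cell NSN and 1.05 in 2-cell ctrl. Hsp90b1 (GRP94), its counterpart in the endoplasmic reticulum, had 1.02 and -0.339 in 2-cell NSN and 0.564 in 2-cell ctrl. The small heat shock proteins, holdases that keep unfolded proteins soluble without ATP, were likewise below background in 6 of 6 genes, with control signals from -1.18 to 1.65.

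The chaperonins gave no gene above background at these limits. The brightest by mean signal was Hspe1 (HSP10), the lid of the mitochondrial chaperonin, with 7.44 and 5.45 in 2-cell NSN and 4.57 in 2-cell ctrl. Its partner Hspd1 (HSP60) had 1.22 and 4.16 in 2-cell NSN and 1.70 in 2-cell ctrl. All 9 genes of TRiC/CCT, the cytosolic ring that folds actin and tubulin, were below background, from -2.09 to 4.16 on 2-cell NSN-a, from -1.18 to 3.89 on 2-cell NSN-b and from -1.44 to 4.73 on the control array. Cct6a was the brightest of these by mean signal, with 4.16 and 1.20 in 2-cell NSN and 4.73 in 2-cell ctrl. Cct5 was the one subunit whose 2-cell NSN signals (3.36 and 3.89) passed the looser limits at a detection p value of 0.05 while its control signal (0.445) did not. Tcp1, the founding subunit, had -2.09 and -0.183 in 2-cell NSN and -0.211 in 2-cell ctrl. Of 3 prefoldin genes, Pfdn4 had -1.82 and -0.478 in 2-cell NSN and 6.20 in 2-cell ctrl, just over the control limit of 6.10, and allows no fold.

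**Figure D2:**
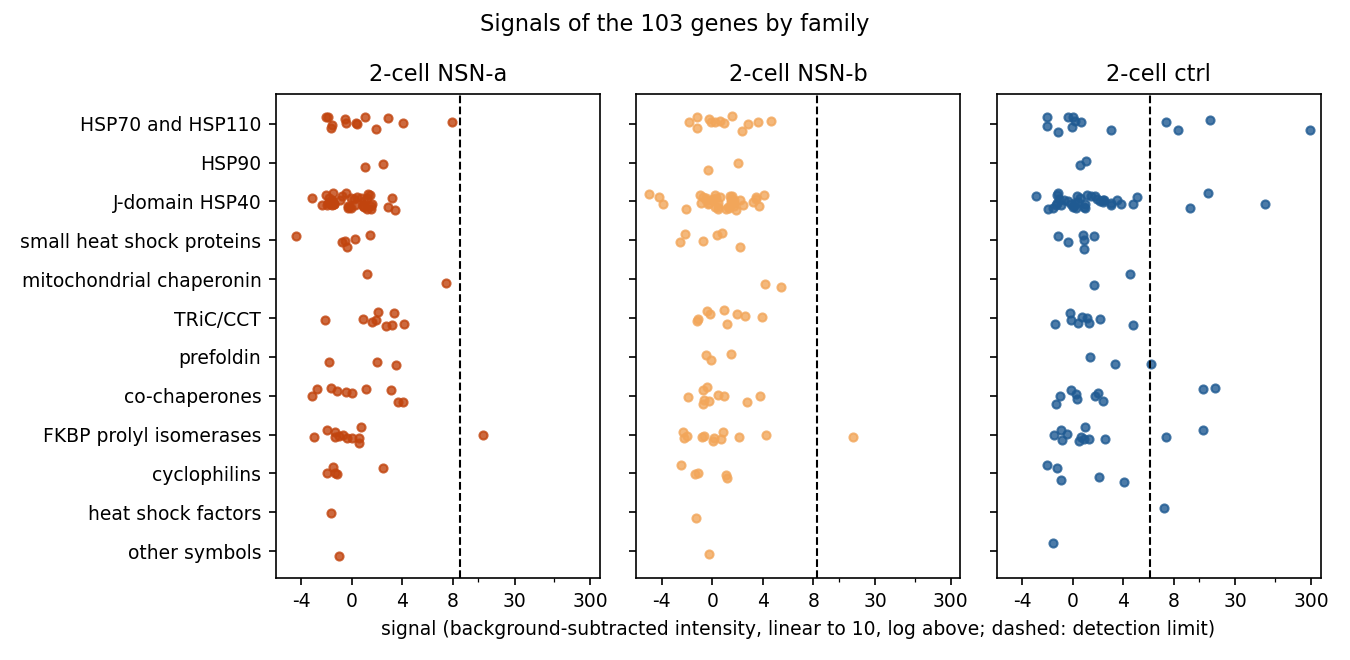
Signal (background-subtracted intensity) of each of the 103 genes by family, with 2-cell NSN-a, 2-cell NSN-b and 2-cell ctrl drawn separately. Except for Fkbpl, the genes lie between -4.98 and 7.93 on the 2-cell NSN arrays. The HSP70 and HSP110, J-domain, co-chaperone and FKBP families each have more than 1 gene above background in 2-cell ctrl.

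Prolyl isomerases turn the peptide bond before proline and make up the FKBP and cyclophilin families. Of 12 FKBP genes, 2 were above background in 2-cell ctrl and 0 were called. Fkbpl, an FKBP-like partner of HSP90, was the only gene of the whole set above background on all 3 arrays, with 11.5 and 15.3 in 2-cell NSN and 11.3 in 2-cell ctrl. The control value lay just below that of 2-cell NSN-a, and the difference (1.18-fold higher in 2-cell NSN, log2 difference 0.24 with a standard error of 0.24) did not pass limma's moderated test (adjusted p = 0.425 over 136 probes). Its adjusted p ran from 0.0602 to 0.490 under other scalings and fits, and the log2 difference was -0.26 after the 2-cell NSN arrays were rescaled. Of the 136 probes in this fit, 43.4% were called higher and 22.8% lower, and after rescaling 20.6% higher and 26.5% lower. With quantile-normalised values of 1105 probes, 11.4% were called higher and 62.4% lower. The fit has 1 residual degree of freedom, taken from the 2-cell NSN arrays, and assumes that the lone control varies like them. Fkbp4 (FKBP52), a co-chaperone of HSP90 in steroid receptor complexes, had 0.544 and 0.114 in 2-cell NSN and 7.34 in 2-cell ctrl, without a fold at these limits. The 5 cyclophilins were below background on every array, the brightest being Ppid (CYP40), an HSP90-bound cyclophilin, with 2.45 and 1.19 in 2-cell NSN and 4.06 in 2-cell ctrl.

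Hsf2, a heat shock transcription factor needed for normal meiosis in the mouse, was the one heat shock factor analysed. It had -1.62 and -1.28 in 2-cell NSN and 7.21 in 2-cell ctrl, above the control limit but under those of the 2-cell NSN arrays. No fold is therefore given for it.

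Second probes did not repeat the signals of the first. For 29 of the genes the array had 34 further probes, of which 0 were above background on any array, with values from -5.07 to 2.07 on 2-cell NSN-a, from -4.12 to 2.17 on 2-cell NSN-b and from -3.56 to 3.03 in 2-cell ctrl. The second probe of Hspa2, annotated to the same transcript, had 1.40 and 2.17 in 2-cell NSN and 0.391 in 2-cell ctrl. That of Dnaja3 had -3.83 and -2.68 in 2-cell NSN and -0.0533 in 2-cell ctrl. For both genes the lower call therefore rests on 1 of 2 probes, and the other probe measured no difference above background. The same holds for the signals of Dnajc10, Hspa8, Hspa9, Pfdn4 and Fkbpl, whose second probes lay between -1.84 and 2.02 except for -2.15 on 2-cell NSN-a for Pfdn4. Bag1, Hsph1 and Dnajb1 each had a single probe.

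**Figure D3:**
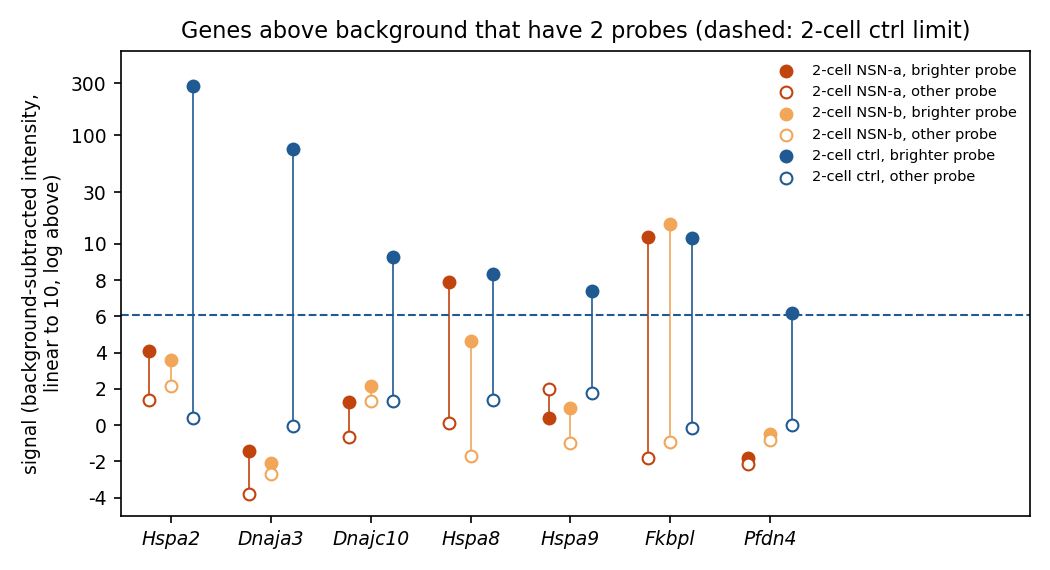
Signal (background-subtracted intensity, axis linear to 10 and logarithmic above) of the brighter probe (filled) and the other probe (open) on each array for the 7 genes above background that have 2 probes. The open points lie below the control limit (dashed, 6.10) on all arrays, also for Hspa2 and Dnaja3.

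The calls depend on where background is set. At the looser limits of a detection p value of 0.05 (3.30 on 2-cell NSN-a, 3.18 on 2-cell NSN-b and 2.94 on 2-cell ctrl), 25 of the 103 genes were above background, 12 were called lower, against 36.9% of all 2485 genes above background, and 0 were called higher, against 8.53%. Above the looser limits on all 3 arrays were Fkbpl, Hspa2, Hspa8 and Hspe1. Hspe1 was not called there, at a log2 difference of 0.48. Limits mirrored from the lower signals of each array (4.16 on 2-cell NSN-a, 3.99 on 2-cell NSN-b and 3.29 on 2-cell ctrl) gave 11 of 21 genes called lower and 0 higher, against 36.5% and 8.18% of all genes. With a threshold of 2-fold, or with normexp correction and quantile normalisation, Hspa2 and Dnaja3 were still called lower and Bag1, Hsph1 and Dnajb1 were not. At 2-fold this follows from the bounds of these 3 genes (1.89, 1.66 and 1.53), which set no upper limit to the difference. The normexp offset of 50 shrinks the log2 differences of signals as dim as theirs. The counts were 2 lower and 0 higher of 13 in both cases, against 33.2% lower and 3.58% higher over all genes at 2-fold, and 7.27% lower and 6.64% higher after quantile normalisation. Bag4 joined the 5 genes called lower with log2(signal + 16) in place of a floor (6 of 13, against 53.7% of all genes lower and 3.06% higher). Bag4 and Dnajc10 joined them once each 2-cell NSN array was divided by its median ratio to the control (7 of 13, against 60.4% lower and 3.48% higher). The count called lower stayed at 5 in the other settings. The background was 43.9% lower and 7.92% higher with the mean of all probes of a gene (5 of 8 genes above background), and 43.5% and 6.85% where both 2-cell NSN arrays had to pass 1.5-fold. It was 43.9% and 9.25% without 2-cell NSN-a, and 42.8% and 9.23% without 2-cell NSN-b. The 5 genes called lower were raised to the limits on both 2-cell NSN arrays. Settings that leave out an array, or ask both to pass, therefore could not test their calls. In none of these settings was a gene of the set called higher. At the reported limits, a gene under both 2-cell NSN limits reaches a log2 difference of at most 0.46. It could not be called higher. Between the 2-cell NSN arrays themselves the same rule called 0 of the set in either direction, with 1 gene above background, and 16 higher and 4 lower of 217 genes over the whole array.

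**Figure D4:**
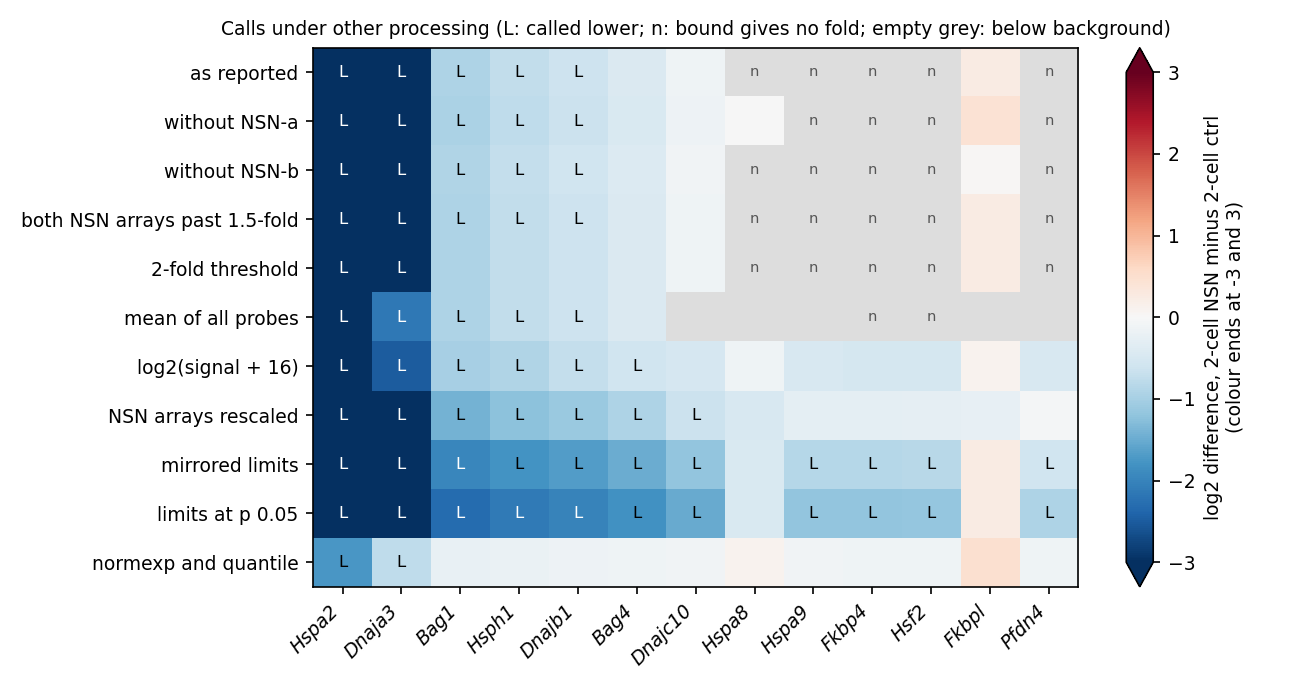
Log2 difference, 2-cell NSN minus 2-cell ctrl (colour, ends at -3 and 3), of the 13 genes above background under the processing as reported and 10 other settings. L marks a gene called lower, n a bound that gives no fold, and empty grey a gene below background; Hspa2 and Dnaja3 carry an L in all 11 rows.

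A further list of folding genes outside these families also lay mostly at background. Of 72 such genes, 8 reached the limit in 2-cell ctrl and 0 on both arrays of 2-cell NSN, and 2 were called lower and 0 higher, against 44.5% lower and 8.32% higher over all genes above background. Tomm34, a cytosolic co-chaperone of mitochondrial import, had -2.47 and 0.988 in 2-cell NSN and 46.6 in 2-cell ctrl, at least 5.53-fold lower. Nudc, a co-chaperone of HSP90, had -1.08 and -0.612 in 2-cell NSN and 13.8 in 2-cell ctrl, at least 1.64-fold lower. Both calls rest on 1 of 2 probes. Not called were Cdc37l1, an HSP90 co-chaperone (1.40 and 5.27 in 2-cell NSN, 10.1 in 2-cell ctrl), and Btf3, of the nascent polypeptide-associated complex (5.53 and 2.52 in 2-cell NSN, 9.45 in 2-cell ctrl). Chordc1, which binds HSP90, had 0.266 and 1.84 in 2-cell NSN and 7.51 in 2-cell ctrl. Get4, which helps to deliver tail-anchored proteins, had -0.730 and 2.22 in 2-cell NSN and 6.15 in 2-cell ctrl. Of 4 probes each, Cdc37l1 and Get4 had 1 above background. The median log2 difference of the 8 genes was -0.06, against -0.41 over all genes above background. For some of the 8, Chordc1 and Get4 among them, the limits alone gave a value above 0. This median therefore understates the differences.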

How the data were processed

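Total RNA of 2-cell embryos (1 control array, 2 of 2-cell NSN) was amplified in 2 rounds, biotin-labelled and hybridised to Illumina mouse-8 BeadChips. The deposited values are linear intensity signals that the authors background-subtracted and normalised by rank-invariant scaling, with BeadStudio 3 named in the submitters' processing notes. 3 columns of another deposited table matched no sample and were not used.

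Detection limits were read from the study's detection p values at 0.01. Such p-values were held for 1188 rows of the authors' differential analysis, 896 of which matched a single probe by its signals in 2-cell NSN-a and the control within 0.002%. The limits rest on these rows and not on all probes, so the signal at which p reaches 0.01 may lie lower. The limits mirrored from the lower signals were 4.16 against 8.57 on 2-cell NSN-a, and 3.29 against 6.10 on 2-cell ctrl. The counts above background, the bounds and the genes without a fold depend on this choice. For 2-cell NSN-b the limit of 2-cell NSN-a was scaled by the spread below the median (1.74 against 1.80). Signals under a limit were raised to it before log2, and folds of such genes are lower bounds. A gene was called at 1.5-fold, using the mean log2 of both 2-cell NSN arrays, where the control array, or each of the 2-cell NSN arrays, reached its limit. There is no replicate test of the control, and the number of arrays limits the precision. limma 3.58.1 (R 4.3.3) (eBayes with a trend on intensity, p-values adjusted by Benjamini-Hochberg) was fitted to the 136 probes above background on all 3 arrays. The rule and the fit were tested on simulated data.

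Of 25697 probes, 23978 have 1 symbol in the platform annotation and 1719 have none here. Promoters were matched by Entrez gene identifier. The genes and lists were chosen with earlier results of these data known. Named are all genes of the set above background, a fixed list of central chaperones, the brightest others of a family, and the 6 further folding genes above background with the highest mean signal. The alternatives were other detection limits, a 2-fold threshold, normexp (offset 50) with quantile normalisation, log2(signal + 16), rescaling of the 2-cell NSN arrays, the mean of all probes, both 2-cell NSN arrays past the threshold, and leaving out each 2-cell NSN array.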

Additional observations from a re-analysis of the deposited data

How the results depend on the processing

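Hspa2 and Dnaja3 were called lower in 2-cell NSN under the reported processing and the 10 alternatives, and 0 genes of the set were called higher in any of them. At the reported limits 12 of the 13 genes were under both 2-cell NSN limits. Such a gene reaches a log2 difference of at most 0.46 and could not be called higher. With the mean of all probes the calls of Hspa2 and Dnaja3 use both probes (log2 difference -4.09 and -2.15). In each other setting they rest on the brighter of 2 probes. The other probe had 0.391 (Hspa2) and -0.0533 (Dnaja3) in 2-cell ctrl. The count called lower (5 of 13) became 11 of 21 with limits mirrored from the deposited values, 12 of 25 at a detection p value of 0.05, 2 of 13 at 2-fold and 2 of 13 with normexp and quantile normalisation. Leaving out either 2-cell NSN array gave 5 to 5 called lower. These 5 genes were under the limits on both 2-cell NSN arrays and were raised to them. Leaving out an array therefore could not test their calls. The median log2 difference (-0.14) was -0.60 with mirrored limits, -0.46 at a p value of 0.05, -0.54 with log2(signal + 16), -0.63 after rescaling and -0.68 with the mean of all probes. 4 genes whose value was above 0 through the limits alone were called lower with mirrored limits and at a p value of 0.05: Fkbp4 (log2 difference -0.85 and -1.18), Hsf2 (-0.82 and -1.15), Hspa9 (-0.86 and -1.19) and Pfdn4 (-0.60 and -0.94). limma called 59 of 136 probes higher and 31 lower as reported, and 28 higher after rescaling. Fitted to normexp and quantile values of 1105 probes, an alternative chosen after seeing the data, it called 126 higher and 690 lower. limma on floored signals of dim probes was not run, since the floors would set the spread. No paired analysis was possible because the control is 1 array and no label ties it to a 2-cell NSN array. Most of the set lies at background, so differences in it were not detectable at this signal.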
